A study of Mus musculus with 60 samples.

Results

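The data compared the livers of GiprSyn-/- mice with those of Giprfl/fl mice, both diet-induced obese and both given vehicle. Giprfl/fl mice carry floxed alleles of Gipr, the gene of the receptor for the gut hormone GIP, and GiprSyn-/- mice are the knockout of the same line. The labels give neither the Cre driver nor the age or sex. The name follows synapsin, whose gene Syn1 is a gene of neurons and whose promoter is widely used to drive Cre recombinase there. Each group had 5 liver libraries, so 10 of the 60 libraries of the series were compared. A further 5 livers of Giprfl/fl mice given mGIPR-Ab/P1, which joins a GLP-1 peptide to a GIPR antibody, shared the table and the estimate of the spread. Vehicle-treated Glp1rWnt1-/- and Glp1rfl/fl livers, 5 of each, served for a comparison with the second knockout of the series. Of the 54343 symbols of the table, 11201 reached 1 FPKM, a fragment count per length of transcript and depth of library, in at least 5 of its 15 libraries and were tested. Nothing in the labels says how the replicates relate to cages, litters or days, so p-values measure the spread between these libraries.

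GIP is released from the intestine after a meal, and its receptor in the brain takes part in the control of food intake and body weight. Liver of obese mice stores triglyceride, which hepatocytes make from glucose under the transcription factors SREBP-1c and ChREBP and burn in mitochondria and peroxisomes under PPAR-alpha. Liver of male and female mice also differs in many genes, because pulses of growth hormone in males keep one set on and another off, and obesity is known to weaken that pattern.

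The knockout cannot be checked in this tissue. Replicates are given in the order 1 to 5 wherever 5 values stand in a row, and a log2 fold change stands with its standard error and the Benjamini-Hochberg adjusted p of limma over all genes tested. Gipr lay between 0 and 0.0092 FPKM in all 10 livers and Syn1 between 0.0678 and 0.298 FPKM. Both groups held Y-linked transcripts and nearly no Xist, the transcript of the inactive X chromosome of females. Ddx3y lay between 9.38 and 16.2 FPKM and Xist at no more than 0.0164 FPKM, as in livers of males.

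Of the 11201 genes, 161 rose and 999 fell in the knockout at an adjusted p under 0.05, which is 1.44% and 8.92% of those tested, and 2700 had an unadjusted p under 0.05. Groups did not overlap for 12.3% of genes. The median log2 fold change over all genes was -0.11. At least 4-fold changes (2 on the log2 scale) were found for 26 of the risen and 34 of the fallen genes. Of the genes tested, 3 reached the minimum of 1 FPKM in the 5 knockouts alone and 7 in the 5 floxed livers alone, so these had to differ between the groups. Others, among them Adgrf1 and Ugt2b37, reached it in all 5 knockouts and in too few other livers to pass without them. Mogat1 and Mmp12 likewise passed only through the 5 floxed livers.

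The balance of these calls depends on how the libraries are scaled to each other. Major urinary protein (Mup) genes, which encode pheromone carriers that male liver secretes in large amounts, took 5.81, 8.58, 2.4, 3.82 and 5.12% of the FPKM sum in floxed replicates 1 to 5 and 22, 25.1, 18.9, 19.7 and 11.2% in the knockouts, with no overlap between the groups. The sum of all other genes was 559310 ± 4491 in floxed and 512125 ± 14682 in knockout livers (FPKM, SD, n = 5, exact permutation p = 0.00794, the smallest that 5 against 5 allow, two-sided, adjusted over 20 measures 0.0529). With median-of-ratios scaling the median over all genes moved to 0.01 and the calls to 281 higher and 436 lower. With quantile normalization they came to 289 and 432, and with each library scaled to a common sum of the genes other than Mup genes, chosen after the data were seen, to 245 and 447. Small falls are to be read against that shift. Scaling to a common sum of all genes gave 136 and 1831. The share of lower genes among the calls thus went from 86.1% to 60.8%, 59.9%, 64.6% and 93.1% in that order of settings.

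Transcripts of other tissues and cells were unevenly spread over the livers, and in bulk tissue fewer cells of a type and less RNA per cell cannot be told apart. The mean of log2(FPKM + 1) over 10 pancreas acinar markers was 3.7, 8.4, 0.482, 5.12 and 8.41 in floxed replicates 1 to 5 and 7.99, 0.713, 0.64, 0.657 and 0.653 in the knockouts. Scores above 5 were thus found in floxed replicates 2, 4 and 5 and in knockout replicate 1, and the summed level of these markers ran from 13.8 to 4990 FPKM in floxed and from 38.3 to 3369 FPKM in knockout livers. Without these libraries and the conjugate livers above 5, 2 floxed and 4 knockout livers were left, and 108 genes were called, 32 higher and 76 lower. This fit is named below as the one without the libraries with pancreas transcripts. It kept floxed replicate 1 at a score of 3.7, so it is not free of such transcripts. The score of 5 erythrocyte markers was lower in every knockout (7.03, 6.81, 6.85, 6.59 and 6.83) than in every floxed liver (7.22, 7.51, 7.75, 7.24 and 7.47), with exact permutation p = 0.00794 (adjusted over 20 measures 0.0529). With that score added to the fit, a setting chosen with the data in view, 313 genes were called, 48 higher and 265 lower. Because the score does not overlap between the groups, such a term also takes up part of the knockout difference. Calls lost with it, here and below, cannot be assigned to either. Knockout replicate 5 stood apart in antigen presentation genes, with Cd74, the invariant chain of MHC class II molecules, at 849 FPKM against 55.4 to 146 FPKM in the other 9 livers, and without it 1627 genes were called. Without knockout replicate 2 the calls fell to 700, without floxed replicate 3 to 732. Their part in the results below was not tested beyond the counts given below. Depth, estimated from the smallest values, was 35.1 to 55.9 M fragments per library and overlapped between the groups. The column number of floxed replicate 5 belongs to a separate, higher run of numbers that holds no knockout. The labels do not say what these numbers mean. With that run as a term 1202 genes were called, 174 higher and 1028 lower.

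**Figure D1:**
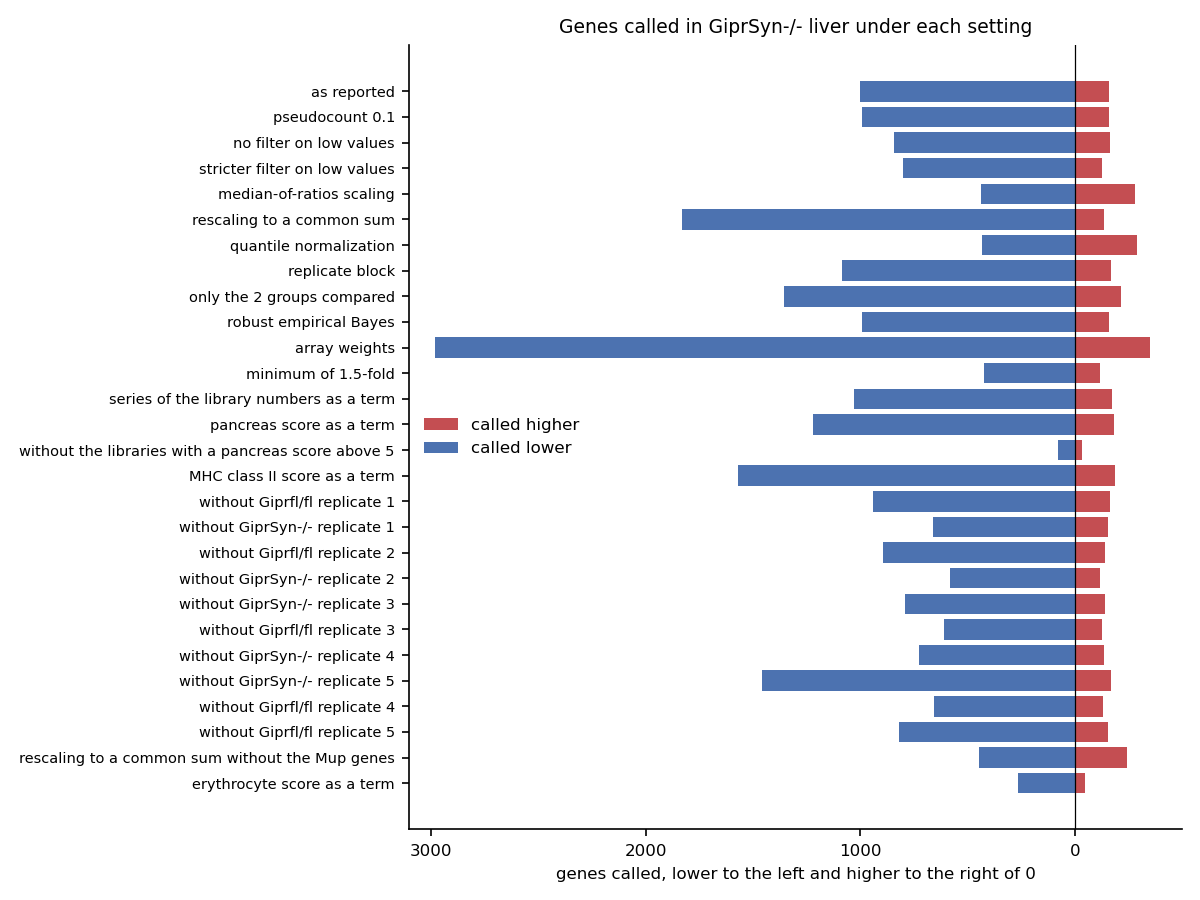
Number of genes called in GiprSyn-/- against Giprfl/fl liver as reported (161 higher, 999 lower) and under each alternative (horizontal axis: genes called; blue bars to the left of 0 are lower, red bars to the right higher). Settings that rescale the libraries apart from the common sum bring the blue bar down to 432 to 447 and the red bar up to 245 to 289, and the fit without the libraries with a pancreas score above 5 leaves 108 in all.

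Genes of fatty acid oxidation were lower in the knockout, and none of those measured rose outside the Cyp4a family. Of 15 mitochondrial genes 9 fell, with a list median of -0.38, of 17 peroxisomal genes 11 fell (median -0.46), and of 6 genes of ketone synthesis 5 fell (median -0.50), against 8.92% of all genes and a median of -0.11. These falls were small in the mitochondrial list (the lowest was -0.66) and moved with the scaling: with median-of-ratios scaling 4, 5 and 2 genes fell in the 3 lists, with the erythrocyte term 5, 4 and 1, and without the libraries with pancreas transcripts 0, 1 and 0. The medians with median-of-ratios scaling were -0.23, -0.32 and -0.35. Without knockout replicates 2 or 4 or floxed replicates 3 or 4, 7 peroxisomal genes fell. Acadm, the medium-chain acyl-CoA dehydrogenase, stood at 237, 243, 233, 258 and 255 FPKM in floxed and 162, 160.0, 182, 188 and 147 FPKM in knockout livers, a log2 fold change of -0.55 ± 0.08 (adjusted p = 0.000386). Every knockout lay below every floxed liver. Cpt1a, the carnitine palmitoyltransferase that admits fatty acids to mitochondria, fell by 0.62 ± 0.13 on the log2 scale (adjusted p = 0.00783). Bdh1, which makes the ketone 3-hydroxybutyrate, fell by 0.61 ± 0.13 on the log2 scale (adjusted p = 0.00669). Acadvl, the very-long-chain dehydrogenase, was not called (-0.18 ± 0.08, adjusted p = 0.158).

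Larger falls belonged to genes at the edge of these pathways. Abcd2, a peroxisomal importer of very-long-chain fatty acids that is also listed as female-biased, stood at 9.01, 9.54, 10.6, 9.76 and 8.66 FPKM in floxed livers and at 0.994, 0.918, 1.27, 2.52 and 2 FPKM in knockout livers (-2.09 ± 0.17, adjusted p = 6.05e-06). Knockout replicates 4 and 5 were the highest of their group and still far below the floxed livers. Crat, carnitine acetyltransferase, which shuttles acetyl groups, went from 19.4, 24.1, 26.1, 32.6 and 23.2 FPKM to 6.4, 4.3, 7.34, 6.72 and 4.69 FPKM (-1.92 ± 0.14, adjusted p = 6.05e-06). The groups were apart, with floxed replicate 4 the highest. Of 9 acyl-CoA thioesterases, which release free fatty acids from CoA, 5 fell with a list median of -0.71, and 3 without the libraries with pancreas transcripts. Over all genes 8.92% fell. Acot4 was at 34.1, 22.1, 26.5, 50.001 and 30.2 FPKM in floxed and 6.53, 4.87, 9.35, 10.2 and 7.16 FPKM in knockout livers (-1.95 ± 0.21, adjusted p = 9e-05), and Acot2 changed by -1.82 ± 0.23 (adjusted p = 0.000198). Acot12, a cytosolic member that splits acetyl-CoA, was not called, with 45.3, 45.6, 43, 52.1 and 51.6 FPKM in floxed and 41.1, 41.5, 46.1, 47.8 and 44.9 FPKM in knockout livers (-0.10 ± 0.08, adjusted p = 0.495). Of the 50-base words of Acot1, Acot2 and Acot4, 80.8%, 72.3% and 95.5% are found in no other mouse gene.

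The Cyp4a family of fatty acid omega-hydroxylases changed in both directions, with 2 of 6 genes called higher and 3 lower. With median-of-ratios scaling the counts were the same, and with the erythrocyte term 1 was higher and 3 lower. Without the libraries with pancreas transcripts 0 were higher and 1, Cyp4a14, was lower. Cyp4a14 went from 175, 177, 192, 198 and 303 FPKM to 2.38, 2.88, 5.43, 11.9 and 1.32 FPKM (-5.42 ± 0.43, adjusted p = 6.05e-06), the largest fall of all genes tested. Cyp4a10 followed from 138, 146, 119.7, 219 and 240.0 to 17.5, 25.2, 31.6, 37.4 and 8.28 FPKM (-2.90 ± 0.33, adjusted p = 0.000122), and Cyp4a31, a minor member, from 1.46, 2, 1.94, 2.15 and 2.76 to 0.426, 0.496, 0.794, 0.542 and 0.704 FPKM (-0.93 ± 0.18, adjusted p = 0.00448). In all 3 genes every knockout liver was below every floxed liver. Cyp4a12a and Cyp4a12b, the members that male liver expresses, rose instead. Cyp4a12b stood at 2.76, 0.795, 0.605, 2.73 and 3.26 FPKM in floxed livers and 19.1, 23.8, 19.7, 13.9 and 7.55 FPKM in knockout livers (2.58 ± 0.36, adjusted p = 0.000395), and Cyp4a12a at 38.9, 23.4, 16.1, 39.8 and 22.3 FPKM in floxed and 57.4, 66, 109, 56.6 and 51.1 FPKM in knockout livers (1.27 ± 0.26, adjusted p = 0.00622). For both, every knockout lay above the highest floxed liver. Much of either sequence is shared with another gene, 51.1% of the 50-base words of Cyp4a12a and 50.6% of those of Cyp4a12b being unique, so the split between them is uncertain. Cyp4a32 was not called (-0.39 ± 0.16, adjusted p = 0.137).

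Of 19 other genes regulated by PPAR-alpha, 11 fell and none rose, with a median of -0.66, where 8.92% of all genes fell. With median-of-ratios scaling 8 fell, with the erythrocyte term 7, and without the libraries with pancreas transcripts 4. The list shares 5 genes with the triglyceride and lipid droplet list described below, and 7 of the other 14 fell, with a median of -0.58. Vnn1, the pantetheinase vanin-1, stood at 47.6, 44.8, 60.4, 67.2 and 58.2 FPKM in floxed and 17.4, 12.1, 29.5, 22.3 and 6.84 FPKM in knockout livers (-1.74 ± 0.27, adjusted p = 0.000863). Pdk4, a kinase that shuts off pyruvate oxidation, fell from 3.56, 3.74, 4.71, 5.03 and 3.36 FPKM to 1.78, 0.537, 1.1, 0.93 and 1.33 FPKM (-1.27 ± 0.21, adjusted p = 0.00151). Both genes were lower in all 5 knockouts than in any floxed liver. Fgf21, a hormone made by fasting liver, lay at 2.04, 3.2, 4.88, 4.97 and 3.51 FPKM in floxed and 0.737, 0.172, 0.471, 0.688 and 0.0837 FPKM in knockout livers without overlap and was not called (-1.71 ± 0.60, adjusted p = 0.0881). The conjugate livers averaged 7.07 ± 11.7 FPKM (SD, n = 5). Fabp1, the most abundant fatty acid binder of the liver, was at 7702, 8575, 7387, 9408 and 8098 FPKM in floxed and 6039.9, 6632, 7826, 6512 and 5325 FPKM in knockout livers and was not called (-0.35 ± 0.12, adjusted p = 0.0682). Ppara itself, the gene of the receptor, was called lower (-0.47 ± 0.12, adjusted p = 0.0221) and was called in 19 of 26 alternatives. It was not called with median-of-ratios scaling, nor without knockout replicate 2 (-0.45, adjusted p = 0.0634), knockout replicate 3 (-0.41, adjusted p = 0.062) or floxed replicate 4 (-0.38, adjusted p = 0.0572).

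Genes that make fatty acids, triglyceride and cholesterol were lower as well, where 8.92% of all genes fell. In fatty acid synthesis 11 of 17 genes fell, with none higher (median -1.06), of 23 genes of triglyceride synthesis and lipid droplets 13 fell (median -0.61), of 16 genes of fatty acid uptake and binding 8 fell (median -0.49) and of 23 genes of cholesterol synthesis and uptake 11 fell (median -0.75). With median-of-ratios scaling 7, 7, 5 and 8 fell, with the erythrocyte term 5, 6, 5 and 4, and without the libraries with pancreas transcripts 4, 4, 4 and 1. None rose in any of these settings. Without knockout replicate 2 the fatty acid, triglyceride and cholesterol lists held 7, 8 and 7 genes that fell, without floxed replicate 3 the first 2 held 7 and 8, without floxed replicate 4 the triglyceride list held 8, and without knockout replicates 1 or 4 the cholesterol list held 6, and without floxed replicate 2 it held 7. Elovl5, an elongase of polyunsaturated fatty acids, stood at 239, 242, 384, 268 and 185 FPKM in floxed and 42.3, 33.4, 58.5, 39.9 and 58.6 FPKM in knockout livers (-2.47 ± 0.23, adjusted p = 2.53e-05). Every knockout was well below the lowest floxed liver. Me1, malic enzyme, which supplies NADPH for synthesis, fell from 89.6, 106, 114, 92.2 and 55.9 to 8.34, 5.17, 23.3, 18.8 and 16.3 FPKM (-2.72 ± 0.31, adjusted p = 0.000111), and Fads2, the delta-6 desaturase, from 381, 576, 475, 579 and 382 to 150.4, 197, 217, 159 and 275 FPKM (-1.27 ± 0.21, adjusted p = 0.0014). Both groups of each gene were apart. Acacb, the mitochondrial acetyl-CoA carboxylase, was at 11.8, 14.3, 19.2, 22.4 and 8.01 FPKM in floxed and 1.69, 1.81, 2.82, 2.07 and 6.24 FPKM in knockout livers (-2.07 ± 0.34, adjusted p = 0.00136), with knockout replicate 5 nearest to the floxed livers.

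Fasn, fatty acid synthase, showed wide floxed values of 99.8, 71.5, 142, 69.9 and 29.96 FPKM beside 23.1, 15.8, 22.8, 21.3 and 31.2 FPKM in the knockouts, and floxed replicate 5 lay within the range of the knockouts. It was called at -1.67 ± 0.42 (adjusted p = 0.0182) but not without floxed replicate 3 (-1.44, adjusted p = 0.0555) or knockout replicate 2 (-1.56, adjusted p = 0.0561). Acly, which makes cytosolic acetyl-CoA, was not called (-0.90 ± 0.29, adjusted p = 0.0679), nor were the transcription factor genes Srebf1 (-0.47 ± 0.28, adjusted p = 0.348) and Mlxipl (0.24 ± 0.18, adjusted p = 0.47), which encode SREBP-1 and ChREBP. Floxed replicate 5 was the lowest of its group for Fasn, Acly and Scd1, the stearoyl-CoA desaturase, which stood at 1300.2, 1313, 3747, 2535 and 706 FPKM in floxed livers. Floxed replicate 3 was the highest of its group for all 3 genes. Unlike Acly, Scd1 was called lower, with a log2 fold change of -2.96 (adjusted p = 0.00168), and was called in all 26 alternatives.

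In sterol synthesis Hmgcs1, which makes HMG-CoA, stood at 64.7, 126, 84, 68.3 and 88.2 FPKM in floxed livers and at 22.8, 22.6, 37.6, 19.2 and 27.8 FPKM in knockout livers (-1.69 ± 0.24, adjusted p = 0.000456). The groups did not overlap. Fdps, farnesyl diphosphate synthase, changed by -1.22 ± 0.28 (adjusted p = 0.0111). Sqle (-0.87 ± 0.53, adjusted p = 0.352), the squalene epoxidase gene, and Srebf2 (-0.41 ± 0.22, adjusted p = 0.287), the gene of a sterol-sensing transcription factor, were not called. All 23 genes of that list had a negative fold change, which is to be read beside the median of -0.11 over all genes.

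Lipid droplet genes fell together with genes known from fatty liver. Plin2, the main coat protein of droplets in hepatocytes, stood at 380.5, 422, 577, 683 and 400.5 FPKM in floxed and 221, 163, 216, 164 and 173 FPKM in knockout livers (-1.36 ± 0.16, adjusted p = 0.000155). Floxed replicates 3 and 4 were the highest, and the groups did not overlap. Mogat1, a monoacylglycerol acyltransferase induced in fatty liver, stood at 4.85, 4.52, 9.15, 6.97 and 2.9 FPKM in floxed and 0.558, 0.218, 0.87, 0.872 and 0.287 FPKM in knockout livers. It passed the filter only because all floxed livers reached 1 FPKM, so its levels are a description with no test. The triglyceride and steatosis lists count it among their falls. Gpam, the first acyltransferase of triglyceride synthesis, changed by -1.0503 ± 0.17 (adjusted p = 0.00136). Dgat2, the last step (-0.14 ± 0.17, adjusted p = 0.666), Plin5 (-0.61 ± 0.24, adjusted p = 0.139) and the lipase gene Pnpla2 (-0.27 ± 0.20, adjusted p = 0.458) were not called. Cd36, a fatty acid transporter, was at 71.6, 59.5, 118, 96.6 and 63.6 FPKM in floxed and 17.4, 14.8, 23.2, 17 and 24.9 FPKM in knockout livers (-1.99 ± 0.22, adjusted p = 0.000105), and Fabp2, the intestinal-type fatty acid binder, at 164, 187, 193, 195 and 181 FPKM in floxed and 89.6, 80.4, 98.6, 89 and 82.5 FPKM in knockout livers (-1.06 ± 0.16, adjusted p = 0.000655). Mogat1 aside, each of these called genes was lower in all 5 knockouts than in all 5 floxed livers.

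A list of 20 genes linked to steatosis, written with earlier results of these livers known, held 15 that fell and none that rose, with a median of -1.84. Over all genes 8.92% fell. Fewer of the list fell with median-of-ratios scaling (13), with the erythrocyte term (8) and without the libraries with pancreas transcripts (7). The list shares 3 genes with the triglyceride list, and 12 of the other 17 fell. Tubb2a, a tubulin, stood at 56.1, 41, 120.5, 72.7 and 31.2 FPKM in floxed and 9.49, 5.76, 7.49, 6.41 and 11.1 FPKM in knockout livers (-2.73 ± 0.35, adjusted p = 0.000273), and Lgals1, galectin-1, at 72.9, 92.4, 150.1, 124 and 60.2 FPKM in floxed and 17.6, 13, 27.1, 22.3 and 29.6 FPKM in knockout livers (-2.11 ± 0.28, adjusted p = 0.000325). Floxed replicates 3 and 4 were the highest for both. Ly6d, a surface protein, was at 4.84, 5.35, 55.7, 13.7 and 5.01 FPKM in floxed and 1.77, 2.67, 1.34, 1.34 and 2.49 FPKM in knockout livers, apart between the groups but with 1 floxed liver far above the others, and was not called (-1.98 ± 0.63, adjusted p = 0.0596). Pparg, the adipogenic receptor gene, was called lower (-1.15 ± 0.29, adjusted p = 0.0202) in 18 of 26 alternatives, and lost the call without floxed replicate 3 (-0.98, adjusted p = 0.0612), floxed replicate 4 (-1.06, adjusted p = 0.0577), knockout replicate 1 (-0.96, adjusted p = 0.0555) or knockout replicate 2 (-1.10, adjusted p = 0.0582).

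Of 22 apolipoprotein and lipoprotein assembly genes 6 fell and 1 rose, and the other 15 were not called. Over all genes 8.92% fell and 1.44% rose. With median-of-ratios scaling 3 fell, and without the libraries with pancreas transcripts 1. With median-of-ratios scaling 3 fell and 1 rose. Apoa4, an apolipoprotein that rises with hepatic fat, stood at 367, 626, 1521, 745 and 733 FPKM in floxed livers and at 71.4, 59.3, 68, 67.1 and 77.4 FPKM in knockout livers (-3.37 ± 0.32, adjusted p = 2.87e-05). The knockouts were close together, while floxed livers differed widely, with floxed replicate 3 the highest. Apoc2, the activator of lipoprotein lipase, changed by -1.33 ± 0.19 (adjusted p = 0.000426), but only 21.7% of its 50-base words are unique to it. Tm6sf2, needed to load lipoproteins with lipid, changed by -1.25 ± 0.17 (adjusted p = 0.000362). Apob, the scaffold of the particle, was not called (0.02 ± 0.14, adjusted p = 0.947).

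**Figure D2:**
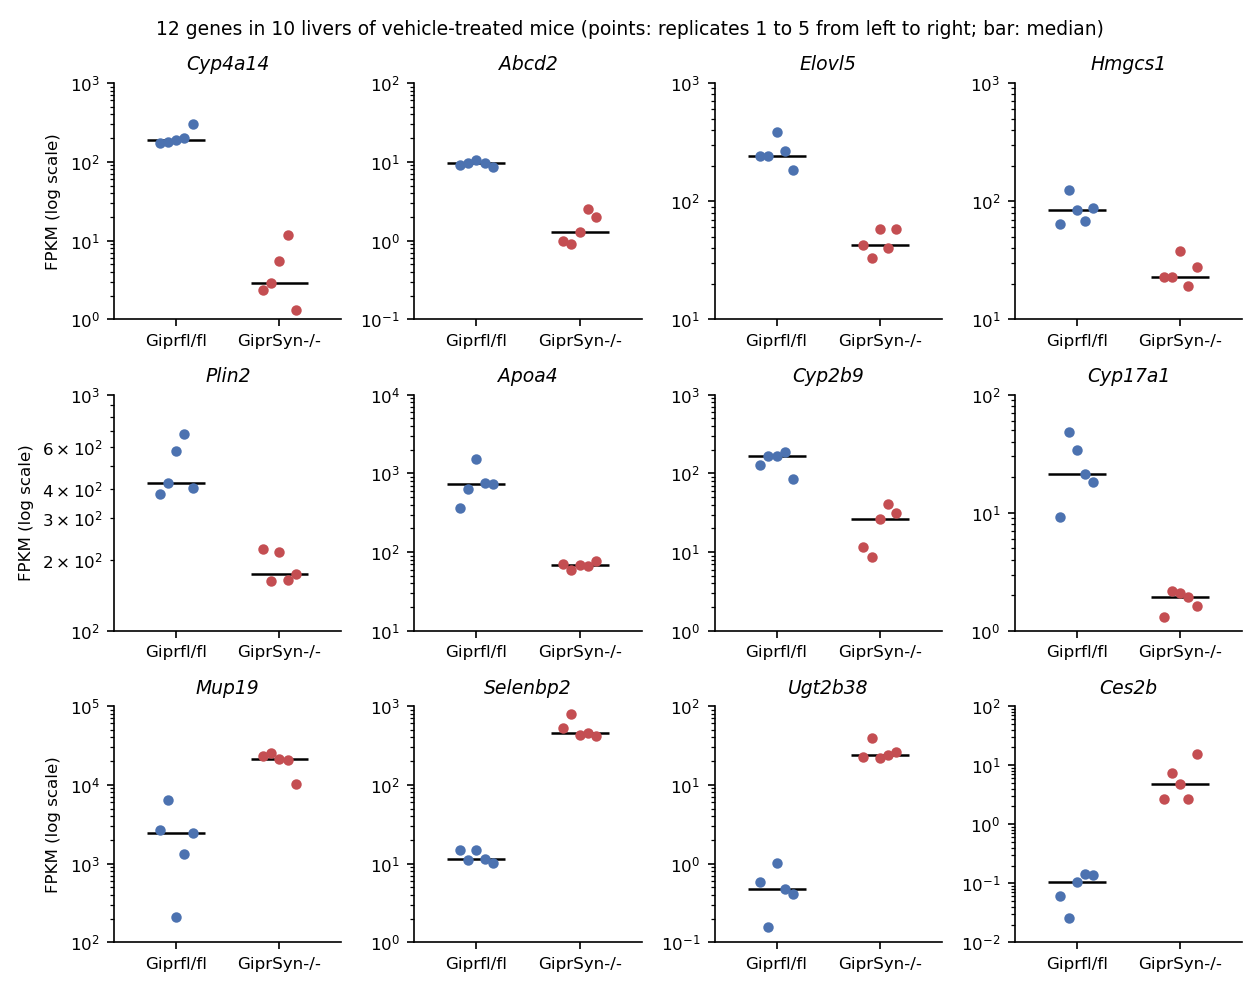
FPKM (log scale) of 12 genes in each of 5 Giprfl/fl (blue) and 5 GiprSyn-/- (red) livers, with the median of each group as a bar. The 8 genes in the upper and middle rows were lower in every knockout than in every floxed liver, and the 4 genes in the lower row higher, with Mup19 running from 209.7 to 6472 FPKM among floxed livers.

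Of the lists described here, the male-biased one held the most genes that rose. Of 24 measured, 21 rose and none fell, with a median of 1.69, where 1.44% of all genes rose. 7 of them are Mup genes, and of the other 17 genes 15 rose. The count stayed at 21 with median-of-ratios scaling, was 11 with the erythrocyte term and 7 without the libraries with pancreas transcripts. Selenbp2, a selenium-binding protein of male liver, stood at 14.8, 11.1, 14.9, 11.3 and 10.3 FPKM in floxed and 528, 798, 426, 458 and 418 FPKM in knockout livers (5.26 ± 0.52, adjusted p = 4.02e-05). Every knockout was more than an order of magnitude above the highest floxed liver. Its neighbour and paralog Selenbp1 lay at 219, 251.7, 197, 217 and 211 FPKM in floxed and 168, 165, 182, 179 and 233 FPKM in knockout livers and was not called (-0.25 ± 0.12, adjusted p = 0.207). Of the 50-base words of their transcripts 56.1% and 53.7% are unique, so part of the reads cannot be assigned to one of them. Cyp7b1, the oxysterol 7-alpha-hydroxylase, went from 29.9, 24.9, 7.24, 17.6 and 27.2 FPKM to 127, 126, 102, 132 and 102 FPKM (2.54 ± 0.32, adjusted p = 0.000212). Floxed replicate 3 was the lowest of all livers. Serpina1e, a member of the alpha-1-antitrypsin cluster, stood at 366, 274, 68.1, 143 and 188 FPKM in floxed and 4788, 4949, 3637, 3569 and 3138 FPKM in knockout livers (4.46 ± 0.52, adjusted p = 0.000138). C6, a component of the membrane attack complex, was at 32.6, 27.7, 19.7, 27.2 and 27 FPKM in floxed and 82.9, 106, 81.6, 80.3 and 78.5 FPKM in knockout livers (1.65 ± 0.17, adjusted p = 6.18e-05). Elovl3, a male-biased elongase, was not called, with 22.7, 27, 9.04, 17.5 and 17.4 FPKM in floxed and 26.4, 26.6, 23.4, 11 and 11.9 FPKM in knockout livers (0.07 ± 0.36, adjusted p = 0.938).

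Of 15 measured female-biased genes 8 fell, where 8.92% of all genes did, 1 rose and 6 were not called, with a median of -1.64. With the erythrocyte term 6 fell, and 4 without the libraries with pancreas transcripts. Cyp2b9, a P450 of female liver, stood at 129, 168, 166, 186 and 84.6 FPKM in floxed and 11.5, 8.57, 26.1, 40.4 and 31.3 FPKM in knockout livers (-2.74 ± 0.58, adjusted p = 0.0076), and Cyp17a1, the steroid 17-alpha-hydroxylase, at 9.21, 48.1, 33.8, 21.4 and 18.2 FPKM in floxed and 1.32, 2.16, 2.08, 1.94 and 1.64 FPKM in knockout livers (-3.08 ± 0.31, adjusted p = 4.7e-05). Prlr, the prolactin receptor, went from 30.1, 28.9, 25, 26.8 and 33.9 FPKM to 7.3, 7.27, 6.73, 11.5 and 11.2 FPKM (-1.64 ± 0.22, adjusted p = 0.00034). The groups of all 3 genes were apart. The gene counted as risen is Sult1e1, the estrogen sulfotransferase, at 0.335, 0.448, 0.133, 0.279 and 0.3 FPKM in floxed and 6.23, 13, 5.02, 1.08 and 9.8 FPKM in knockout livers. It reached the minimum of 1 FPKM in the knockouts alone and so could enter the list as a rise only.

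Of 19 measured Mup genes 17 rose and none fell, where 1.44% of all genes rose. Their median of 3.44 was 3.59 with median-of-ratios scaling. With the erythrocyte term or without the libraries with pancreas transcripts 3 of them were called. Mup19 stood at 2633, 6472, 209.7, 1309 and 2437 FPKM in floxed livers and at 23042, 25177, 21410.3, 20897 and 10353 FPKM in knockout livers (3.57 ± 0.68, adjusted p = 0.00386). Mup9 was at 93.5, 374, 18.2, 55.3 and 86.7 FPKM in floxed and 2508, 2627, 2630.4, 2317 and 803 FPKM in knockout livers (4.64 ± 0.65, adjusted p = 0.000426), and Mup11 at 1654, 3845, 285, 926 and 1715 FPKM in floxed and 16112, 18753, 13054, 14427 and 7727 FPKM in knockout livers (3.44 ± 0.55, adjusted p = 0.00107). Floxed replicate 3 was the lowest liver for all 3 and floxed replicate 2 the highest of its group, while knockout replicate 5 was the lowest knockout. Members outside the central cluster of near-identical copies had smaller fold changes. Mup21 was at 134, 109.9, 28.4, 73.8 and 65.1 FPKM in floxed and 327, 376, 283, 162 and 153 FPKM in knockout livers (1.73 ± 0.38, adjusted p = 0.00938), Mup20, which encodes the male pheromone darcin, changed by 1.17 ± 0.23 (adjusted p = 0.00478), and Mup3 was not called (0.76 ± 0.25, adjusted p = 0.0689). The unique share of 50-base words is 0% for Mup19, 20.9% for Mup9, 22.2% for Mup11, 80.7% for Mup21, 49.5% for Mup20 and 86.7% for Mup3, so the level of a single central member is uncertain.

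The promoters of these genes are shown because near-identical central members and the more distant Mup21 can be set side by side with their changes. Each run covers 250 bases before and 50 after the RefSeq gene start on the minus strand of chromosome 4 (GRCm38.p6), and capitals mark TATATAA, the TATA box sequence, searched on both strands.
Mup19 at chr4:61782175-61782474, log2 fold change 3.57: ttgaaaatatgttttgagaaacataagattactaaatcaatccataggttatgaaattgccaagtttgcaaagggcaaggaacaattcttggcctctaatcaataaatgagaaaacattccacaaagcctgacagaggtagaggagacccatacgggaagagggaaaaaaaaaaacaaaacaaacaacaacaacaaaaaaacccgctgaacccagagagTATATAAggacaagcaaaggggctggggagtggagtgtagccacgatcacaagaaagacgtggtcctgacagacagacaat
Mup9 at chr4:60421903-60422202, log2 fold change 4.64: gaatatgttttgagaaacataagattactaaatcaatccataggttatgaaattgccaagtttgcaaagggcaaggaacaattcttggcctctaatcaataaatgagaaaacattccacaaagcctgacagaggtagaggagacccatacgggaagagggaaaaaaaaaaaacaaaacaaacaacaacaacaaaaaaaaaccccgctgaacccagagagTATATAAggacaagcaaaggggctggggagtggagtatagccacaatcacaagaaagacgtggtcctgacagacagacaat
Mup21 at chr4:62150792-62151091, log2 fold change 1.73: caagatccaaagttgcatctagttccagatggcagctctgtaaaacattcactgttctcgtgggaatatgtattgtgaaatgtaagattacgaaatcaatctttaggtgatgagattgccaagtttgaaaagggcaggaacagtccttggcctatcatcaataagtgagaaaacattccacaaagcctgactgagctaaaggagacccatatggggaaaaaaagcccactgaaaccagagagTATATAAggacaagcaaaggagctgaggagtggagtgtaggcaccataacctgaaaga
Mup19 and Mup9 were identical at 294 bases with 2 mismatches and 8 gap bases, and Mup19 and Mup21 at 214 bases with 27 mismatches and 118 gap bases. TATATAA was found in 11 of the 12 measured Mup genes with a promoter in the table and in 3.24% of all 32851 promoters. It starts 31 bases before the start of Mup19 and of Mup9 and 8 bases before the annotated start of Mup21. The Mup21 window is therefore offset from those of Mup19 and Mup9, and part of its gap bases comes from that offset.

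Selenbp2 and Selenbp1, on the plus strand of chromosome 3, are a second pair of like promoters with unlike changes and hold no TATATAA.
Selenbp2 at chr3:94693323-94693622, log2 fold change 5.26: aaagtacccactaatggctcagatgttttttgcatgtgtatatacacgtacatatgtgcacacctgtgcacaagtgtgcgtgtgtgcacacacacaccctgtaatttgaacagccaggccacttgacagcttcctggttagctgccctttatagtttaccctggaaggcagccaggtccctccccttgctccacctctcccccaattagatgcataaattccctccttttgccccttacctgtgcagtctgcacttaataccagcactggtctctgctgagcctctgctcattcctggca
Selenbp1 at chr3:94932833-94933132, log2 fold change -0.25: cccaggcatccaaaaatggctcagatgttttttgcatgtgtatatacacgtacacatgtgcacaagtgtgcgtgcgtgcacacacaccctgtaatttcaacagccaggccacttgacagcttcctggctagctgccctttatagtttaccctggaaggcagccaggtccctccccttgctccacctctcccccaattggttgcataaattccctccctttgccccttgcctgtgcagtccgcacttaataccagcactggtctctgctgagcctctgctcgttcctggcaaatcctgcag
They shared 273 identical bases with 15 mismatches and 24 gap bases, an identity of 87.5%. A like sequence is a description of these windows and says nothing of what binds there.

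**Figure D3:**
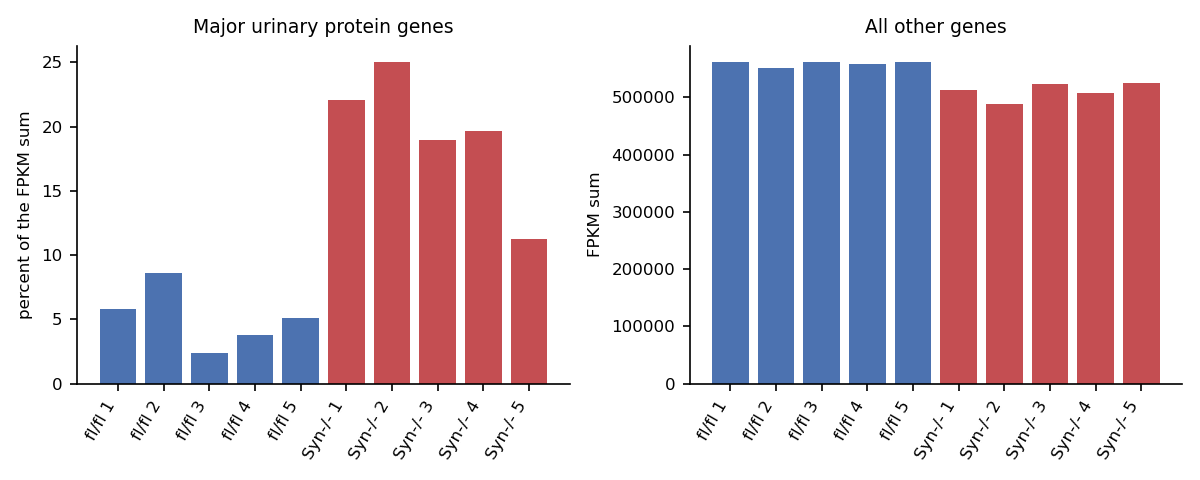
Share of the FPKM sum taken by Mup genes in percent (left) and FPKM sum of all other genes (right), in each of 5 Giprfl/fl (blue) and 5 GiprSyn-/- (red) livers. The Mup share is 2.4% to 8.58% in floxed and 11.2% to 25.1% in knockout livers, and the rest of the sum is lower in every knockout.

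Several genes that were low in floxed livers were higher in every knockout. Ugt2b38, a glucuronosyltransferase that conjugates steroids, stood at 0.589, 0.156, 1.01, 0.48 and 0.409 FPKM in floxed and 22.7, 39.5, 22.1, 23.7 and 26 FPKM in knockout livers (4.17 ± 0.25, adjusted p = 5.38e-07). Ugt2b37, its paralog, stood at 0.121, 0.139, 1.47, 0.507 and 0.27 FPKM in floxed and 3.61, 4.07, 2.94, 2.78 and 8.65 FPKM in knockout livers, and 62.6% and 81.7% of their 50-base words are unique. Ces2b, a carboxylesterase, was at 0.0611, 0.0258, 0.105, 0.143 and 0.138 FPKM in floxed and 2.68, 7.46, 4.79, 2.65 and 15.6 FPKM in knockout livers. It reached the minimum of 1 FPKM in the knockouts alone, so these levels are a description with no test. Adgrf1, an adhesion receptor, was at 0.184, 0.0988, 0, 0.0952 and 0.29 FPKM in floxed and 2.53, 4.91, 1.67, 1.53 and 2.48 FPKM in knockout livers. Ugt2b37 and Adgrf1 passed the filter only because all knockouts reached 1 FPKM, so their levels too are a description with no test. Crat, Ces2b, Adgrf1, Lifr, Serpina7 and Paqr9 are named for their difference between the 2 knockouts of the series and were chosen after their values were seen. The added 1 FPKM damps the fold change of such low genes. In the conjugate livers these genes averaged 1.38 ± 0.993, 0.312 ± 0.101, 0.0491 ± 0.0279 and 0.835 ± 0.546 FPKM.

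Of 30 P450 genes of drug metabolism with their regulators 3 rose and 5 fell, where 1.44% of all genes rose and 8.92% fell. Of the fallen, Cyp2c39 reached the minimum of 1 FPKM in the floxed livers alone. The fallen were 3 with median-of-ratios scaling and without knockout replicate 2 or floxed replicate 3, and 2 with the erythrocyte term or without the libraries with pancreas transcripts. Of 34 glutathione transferase and antioxidant genes 2 rose and 14 fell (median -0.46), 11 with median-of-ratios scaling, 6 with the erythrocyte term and 2 without the libraries with pancreas transcripts. Cyp1a2, the arylamine hydroxylase of pericentral hepatocytes, stood at 145, 115, 69, 81.6 and 143 FPKM in floxed and 467, 338, 291, 402 and 469 FPKM in knockout livers (1.86 ± 0.21, adjusted p = 0.000131), while Cyp2c38 fell from 25.1, 34.6, 30.1, 29.5 and 25.9 to 2.99, 2.09, 4.68, 4.93 and 4.82 FPKM (-2.65 ± 0.20, adjusted p = 6.05e-06). Neither pair of groups overlapped. Cyp2c70, which makes muricholic acids in mice, rose from 92, 81.8, 99.6, 79.3 and 88.4 to 204, 291, 174, 284 and 263 FPKM (1.43 ± 0.17, adjusted p = 0.000136). Nfe2l2, the gene of the antioxidant regulator NRF2, went from 35.7, 30.7, 39.5, 32.3 and 28.8 to 25.1, 18.1, 19.4, 23.9 and 21.4 FPKM (-0.61 ± 0.10, adjusted p = 0.00132), and Nqo1, a quinone reductase known as its target, from 8.37, 6.37, 10.7, 8.83 and 6.56 to 2.03, 1.58, 1.98, 3.11 and 5.69 FPKM (-1.31 ± 0.23, adjusted p = 0.0019). Gsta1, a glutathione transferase, changed by -2.88 ± 0.54 (adjusted p = 0.00334), with 9.5% of its 50-base words unique, and Gstm3 by -2.33 ± 0.41 (adjusted p = 0.00197). Gstp1, the male-biased transferase, rose to 2048, 1379, 1458, 1649.8 and 1789.8 FPKM from 637, 655, 533, 528 and 504 FPKM (1.53 ± 0.19, adjusted p = 0.000189). The 12-alpha-hydroxylase gene Cyp8b1 of bile acid synthesis was called lower (-0.95 ± 0.22, adjusted p = 0.0135, in 23 of 26 alternatives and not with median-of-ratios scaling), and Cyp7a1, which encodes the rate-limiting enzyme of that pathway, was not called (0.09 ± 0.48, adjusted p = 0.935).

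Of 26 acute-phase genes 10 fell and 1 rose, and of 27 complement genes 6 rose and 1 fell, where 8.92% of all genes fell and 1.44% rose, with medians of -0.41 and 0.00. The other 15 and 20 were not called, and the difference between the lists was not tested. In the acute-phase list 2 genes fell with the erythrocyte term, 1 without the libraries with pancreas transcripts, and 6 without knockout replicate 2 or floxed replicate 4. In the complement list 2 genes rose in either of the first 2 settings. Lcn2, the iron-scavenging lipocalin, stood at 15.5, 14.5, 81.7, 31.4 and 35.9 FPKM in floxed and 1.72, 2.63, 2.91, 2.48 and 10.1 FPKM in knockout livers (-2.81 ± 0.59, adjusted p = 0.00689). The metallothionein genes Mt1 and Mt2, whose products bind zinc, fell too, with Mt1 at 16.5, 88.4, 64.9, 135 and 212 FPKM in floxed and 14.7, 19.2, 10.2, 13.1 and 13.1 FPKM in knockout livers (-2.41 ± 0.57, adjusted p = 0.0141) and Mt2 at 7.94, 45.2, 40.6, 85.2 and 130.4 FPKM in floxed and 7.89, 7.81, 2.73, 4.08 and 4.6 FPKM in knockout livers (-2.90 ± 0.70, adjusted p = 0.0151). In Mt1 floxed replicate 1 lay within the knockout range, and the knockouts were otherwise below. C8b, of the membrane attack complex, rose from 41.7, 35.5, 24.2, 30.9 and 40.0 to 137, 185, 131, 139.9 and 164 FPKM (2.12 ± 0.17, adjusted p = 6.05e-06), and C8a changed by 0.85 ± 0.18 (adjusted p = 0.00735). Serpina3k, a serine protease inhibitor, rose from 1936, 1575, 1111, 1420.3 and 1534 to 4008, 4840.0, 3566, 4086 and 3331 FPKM (1.40 ± 0.15, adjusted p = 6.37e-05). Within the alpha-1-antitrypsin cluster 4 of 8 genes rose and 1 fell, while 2 rose with quantile normalization or the erythrocyte term and 1 without the libraries with pancreas transcripts. Serpina1c, which is also 1 of the 6 hepatocyte markers, changed by 0.73 ± 0.17 (adjusted p = 0.0114) and Serpina1a by 0.49 ± 0.10 (adjusted p = 0.00601), neither called with quantile normalization, and Serpina1b (0.07 ± 0.09, adjusted p = 0.698) and Serpina1d (0.29 ± 0.12, adjusted p = 0.158) were not called. Serpina7, thyroxine-binding globulin, fell from 41.5, 24.3, 67.8, 48.4 and 29.97 to 9.24, 10.4, 15.8, 13.1 and 4.72 FPKM (-1.90 ± 0.28, adjusted p = 0.000616). Hamp, the iron hormone hepcidin, lay at 1330.1, 1053, 539, 528 and 922 FPKM in floxed and 1571, 1942, 1331, 1452 and 1940.3 FPKM in knockout livers and was called at 0.99 ± 0.30 (adjusted p = 0.0479) in 11 of 26 alternatives. Leaving out any library other than floxed replicate 1 ended that call, with an adjusted p of up to 0.135. Fth1, the ferritin heavy chain, fell from 975, 1224, 1235, 1169 and 1469 to 639.5, 611, 757, 661 and 789.8 FPKM (-0.81 ± 0.13, adjusted p = 0.00136).

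Genes of glucose, ammonia and amino acid metabolism are given beside the 8.92% of all genes that fell and the 1.44% that rose. Of 39 genes of amino acid breakdown 5 fell and 1 rose, of 20 genes of branched-chain breakdown 1 fell and 1 rose, of 16 genes of gluconeogenesis and glycogen 3 fell, and of 19 genes of insulin response and glycolysis 5 fell, none of the last with median-of-ratios scaling. Without knockout replicate 2 or floxed replicate 3, 3 genes of the insulin list and 3 of the amino acid list were called lower, and 3 of the amino acid list without floxed replicate 2, knockout replicate 3 or knockout replicate 4. With median-of-ratios scaling or the erythrocyte term 1 gene of the amino acid list was called lower, and without the libraries with pancreas transcripts 0. Cps1, the entry enzyme of the urea cycle, stood at 553, 573, 372, 374 and 366 FPKM in floxed and 702, 837, 673, 774 and 1033 FPKM in knockout livers (0.86 ± 0.17, adjusted p = 0.00466). Glul, glutamine synthetase, the enzyme of the last pericentral cell layer, was at 555, 544, 518, 512 and 454 FPKM in floxed and 299, 326, 348, 331 and 398 FPKM in knockout livers (-0.60 ± 0.13, adjusted p = 0.00973), and was not called with median-of-ratios scaling. Cdh1, periportal E-cadherin, changed by 1.15 ± 0.23 (adjusted p = 0.00498). Of 20 pericentral genes 1 rose and 4 fell, and of 19 periportal genes 3 rose and 3 fell. The pericentral gene that rose was Cyp1a2 (1.86), and the lowest periportal fold change was -1.11. Medians were 0.03 for the pericentral and -0.08 for the periportal list. Without the libraries with pancreas transcripts no gene of either list was called lower and no periportal gene higher. With the erythrocyte term 1 periportal gene rose and none fell, and 1 pericentral gene fell. With median-of-ratios scaling 5 periportal genes rose and 2 pericentral genes fell. Fbp1, fructose bisphosphatase, fell by 0.59 ± 0.11 on the log2 scale (adjusted p = 0.0038) and Pcx, pyruvate carboxylase, by 0.71 ± 0.16 on the log2 scale (adjusted p = 0.0117), while Pck1 (0.14 ± 0.27, adjusted p = 0.815), the gene of phosphoenolpyruvate carboxykinase, and G6pc (-0.87 ± 0.43, adjusted p = 0.232), that of glucose-6-phosphatase, were not called.

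Of 16 genes of the growth hormone axis 1 rose and 1 fell, where 1.44% of all genes rose and 8.92% fell. Igfbp2, a binding protein of IGF, stood at 68.6, 133, 31.8, 70.6 and 166 FPKM in floxed and 291, 259, 256, 241 and 302 FPKM in knockout livers and was called at 1.72 ± 0.45 (adjusted p = 0.0235), but not without knockout replicate 1 (1.69, adjusted p = 0.054), knockout replicate 2 (1.73, adjusted p = 0.0544), floxed replicate 3 (1.39, adjusted p = 0.0642) or floxed replicate 4 (1.67, adjusted p = 0.0577). Igf1 (-0.12 ± 0.09, adjusted p = 0.417), the receptor gene Ghr (0.11 ± 0.11, adjusted p = 0.598) and its signal transducer Stat5b (-0.08 ± 0.16, adjusted p = 0.805) were not called. Bcl6 (0.93 ± 0.40, adjusted p = 0.167) and Socs2 (0.94 ± 0.46, adjusted p = 0.228), which respond to growth hormone, were not called, with knockout replicate 1 the highest liver for Bcl6 and the lowest for Socs2. Egfr, the EGF receptor, rose from 19.8, 14, 12.1, 18 and 16.7 to 37.9, 63, 54.4, 69.2 and 35.7 FPKM (1.603 ± 0.22, adjusted p = 0.00034), and Lifr, the receptor of leukemia inhibitory factor, from 21.7, 24.5, 14.9, 19.5 and 27.8 to 81.3, 111, 77.6, 88.3 and 88 FPKM (2.01 ± 0.19, adjusted p = 2.85e-05). Of 28 lipid transcription factors 3 fell, where 8.92% of all genes did, and 1 without knockout replicate 2 or floxed replicate 4. None of 9 measured incretin, glucagon and leptin receptor genes was called by limma (3 had an unadjusted p under 0.05), with Gcgr, the glucagon receptor, at -0.12 ± 0.20 (adjusted p = 0.764).

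In 4 further lists limma called no gene in either direction. They held 29 nuclear and 13 mitochondrial transcripts of oxidative phosphorylation, 18 clock genes and 23 interferon-stimulated genes, with medians of -0.21, -0.13, -0.07 and -0.11, against -0.11 over all genes, and 9, 0, 1 and 1 genes in that order had an unadjusted p under 0.05. With each library scaled to a common sum of all genes 11 of the nuclear oxidative phosphorylation transcripts, 2 clock genes and 1 interferon-stimulated gene were called lower. With the pancreas score as a term 3 of the nuclear transcripts were. With quantile normalization 3 mitochondrial transcripts were called lower and 1 clock gene higher. Without knockout replicate 5, 9 of the interferon-stimulated genes were called lower.

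**Figure D4:**
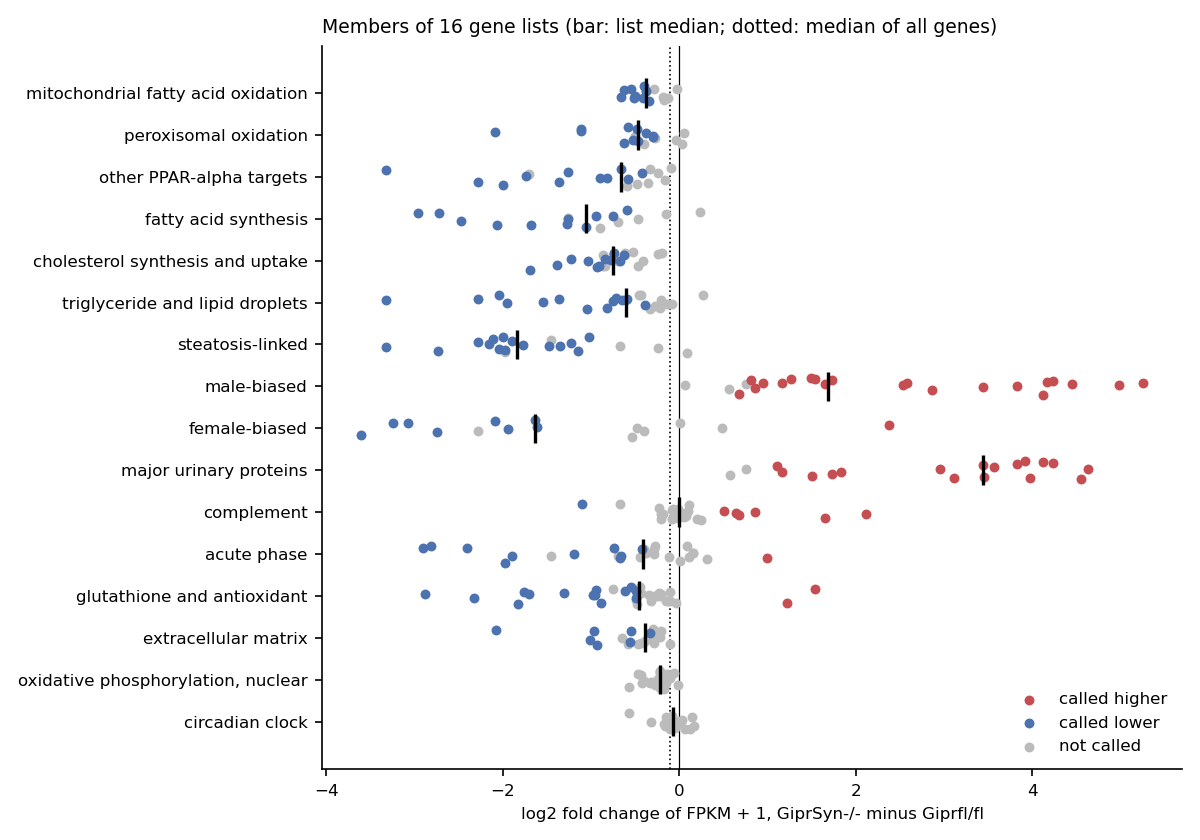
Log2 fold changes (GiprSyn-/- minus Giprfl/fl) of the measured members of 16 gene lists, each point 1 gene, red and blue where called higher or lower and grey where not. The black bar is the list median and the dotted line the median of all genes (-0.11). The male-biased and Mup lists, which share 7 genes, lie to the right with medians of 1.69 and 3.44, and the steatosis-linked and female-biased lists to the left with -1.84 and -1.64.

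Markers of cells other than hepatocytes were read beside the 8.92% of all genes that fell. None of 6 markers of sinusoidal endothelium, 6 of stellate cells and 6 of Kupffer cells was called by limma, and 1, 0 and 0 of them had an unadjusted p under 0.05. Of 10 markers of lipid-associated macrophages, which gather around fatty hepatocytes, Cd9 (-0.99 ± 0.23, adjusted p = 0.0137) and Mmp12 fell, against 7 without knockout replicate 5, 4 without floxed replicate 1, and 1 without floxed replicate 3 or 4. Mmp12, a macrophage elastase, stood at 1.8, 2.79, 11.1, 7.8 and 3.96 FPKM in floxed and 0.183, 0.145, 0.75, 0.495 and 0.163 FPKM in knockout livers. It passed the filter only because all floxed livers reached 1 FPKM, so its levels are a description with no test. Its call, lost without floxed replicate 3 or floxed replicate 4, is no support for a fall. Both this list and the extracellular matrix list below count it. Trem2, the receptor that defines these macrophages, was at 0.852, 1.052, 3.67, 1.85 and 1.52 FPKM in floxed and 0.305, 0.431, 0.847, 0.748 and 0.758 FPKM in knockout livers, without overlap and not called (-0.72 ± 0.22, adjusted p = 0.0512). The score of the 12 markers was 3.48 ± 0.478 in floxed and 2.81 ± 0.274 in knockout livers (SD, n = 5, exact permutation p = 0.0317, adjusted over 20 measures 0.0794), with knockout replicate 5 the highest knockout. Of 22 extracellular matrix genes 7 fell, 5 with median-of-ratios scaling and none with the erythrocyte term. Without knockout replicate 5, 12 of them fell. Without floxed replicates 3, 4 or 5 the count was 1, 2 and 4, and without any 1 of knockout replicates 1 to 4 it was 3. Col1a1, of fibrillar collagen, lay at 1.59, 1.51, 3.88, 2.64 and 2.51 FPKM in floxed and 0.717, 0.604, 0.488, 0.446 and 1.69 FPKM in knockout livers (-0.93 ± 0.23, adjusted p = 0.0182) and was not called without floxed replicate 3 (-0.80, adjusted p = 0.0546) or knockout replicate 2 (-0.90, adjusted p = 0.0504). The hepatocyte marker score was 11.2 ± 0.0774 in floxed and 11.4 ± 0.0518 in knockout livers (SD, n = 5, exact permutation p = 0.0238, adjusted 0.0794). Of its 6 markers limma called only Serpina1c, at a log2 fold change of 0.73, and the median over the 6 was 0.10. The score difference thus rests largely on that 1 marker.

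The second knockout of the series, Glp1rWnt1-/-, was compared with its own floxed line in the same way. In Glp1rWnt1-/- against Glp1rfl/fl liver no gene of 10858 was called by limma, with 1048 at an unadjusted p under 0.05. The difference of the 2 knockout effects, GiprSyn-/- minus Glp1rWnt1-/-, was called for 75 of 11419 genes, 0.657%, and 1219 had an unadjusted p under 0.05. It was negative for 62 and positive for 13. A P450 gene among the 13 averaged 0.0167 FPKM in Giprfl/fl and 0.0164 FPKM in GiprSyn-/- livers. In Glp1rfl/fl and Glp1rWnt1-/- livers it averaged 14.6 and 4.2 FPKM, so its difference comes from the Glp1r line. Of the 75 genes, 73 were also called in GiprSyn-/- liver, which is 6.29% of its calls, so for most genes called there a difference between the knockouts was not shown. Median-of-ratios scaling gave 39 differences, the fit without the libraries with pancreas transcripts 16, and leaving out 1 library 29 (without Glp1rWnt1-/- replicate 5) to 173 (without Glp1rWnt1-/- replicate 1). In the Gipr line the count was 37 without knockout replicate 2, 37 without floxed replicate 3 and 31 without floxed replicate 4. In the Glp1r line it was 33, 46, 37 and 46 without floxed replicates 1 to 4 in turn, and 35 without knockout replicate 3.

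Cyp4a14 differed most, by -4.33 ± 0.52 (adjusted p = 3.6e-05), with 225 to 364 and 64.3 to 213 FPKM in the 5 Glp1rfl/fl and the 5 Glp1rWnt1-/- livers, levels that come from a table made separately. Apoa4 differed by -2.91 ± 0.54 (adjusted p = 0.00946), Cyp4a10 by -2.40 ± 0.40 (adjusted p = 0.00238) and Cyp2c38 by -2.02 ± 0.28 (adjusted p = 0.000341). Cyp1a2 rose in GiprSyn-/- liver, while its log2 fold change was -0.06 ± 0.16 in Glp1rWnt1-/- liver, a difference of 1.91 ± 0.28 (adjusted p = 0.000415). Paqr9, a receptor-like membrane protein, fell from 34.8, 34.6, 42.3, 45.6 and 44.6 to 12.4, 13, 16.4, 15.2 and 9.31 FPKM (-1.55 ± 0.15, adjusted p = 2.85e-05) in GiprSyn-/- liver and stood at 0.02 ± 0.16 in Glp1rWnt1-/- liver, a difference of -1.57 ± 0.23 (adjusted p = 0.000415). Ces2b and Ugt2b38 had no more than 0.534 and 3.51 FPKM in any of the 10 livers of the Glp1r line, and the difference for Ugt2b38 was 3.35 ± 0.34 (adjusted p = 2.69e-06). Of the 24 male-biased genes 3 differed between the knockouts, and no Mup gene did. The Mup genes had a median of 2.37 over the genes tested in Glp1rWnt1-/- liver and 3.44 in GiprSyn-/- liver, and the male-biased genes 0.95 and 1.69. For Selenbp2 the difference was 2.70 ± 0.86 (adjusted p = 0.183) and for Mup19 0.67 ± 0.90 (adjusted p = 0.858), neither called.

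**Figure D5:**
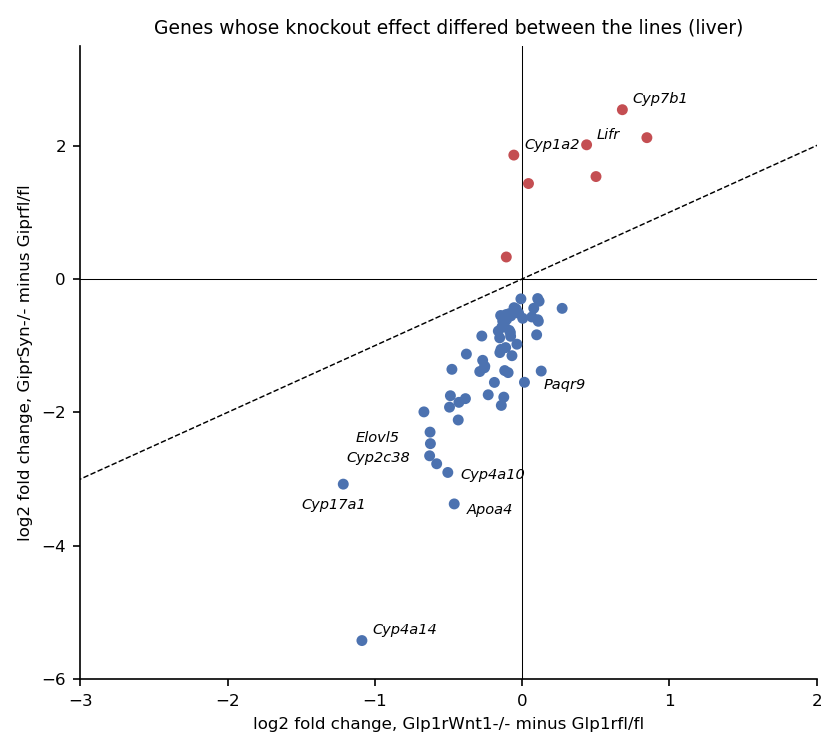
Log2 fold change in Glp1rWnt1-/- (horizontal) and in GiprSyn-/- liver (vertical), each against its own floxed group, for the 67 genes that were tested in both and whose effects differed between the lines. The dashed line marks equal effects. Effects run from -1.21 to 0.85 on the horizontal axis, with Cyp4a14 at the bottom left at -5.42 in GiprSyn-/- liver.

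The conjugate livers share the floxed livers with the knockout, so the values of each comparison stand side by side without a measure of likeness. In conjugate liver 1.17% of genes were called higher and 3.17% lower. Of the male-biased genes 8 rose with the conjugate and 21 in the knockout, of the 20 steatosis-linked genes 10 and 15 fell, and of the genes of fatty acid synthesis 1 and 11 fell. Plin2 averaged 492 ± 132 FPKM in floxed, 235 ± 30.6 in conjugate and 187 ± 28.5 in knockout livers, and Apoa4 798 ± 432, 134 ± 65 and 68.6 ± 6.62 FPKM. Cyp4a14 averaged 209 ± 53.5, 225 ± 118 and 4.77 ± 4.24 FPKM, and Prlr 28.9 ± 3.4, 28.3 ± 8.49 and 8.79 ± 2.33 FPKM (SD, n = 5 throughout).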

How the data were processed

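The values are FPKM per gene symbol as deposited, made by the authors from stranded poly(A) RNA libraries per the labels' protocols, with RSEM named in the submitters' processing notes. Genome build and annotation: not given in the sources used here. The labels' protocol names 2 ways of RNA precipitation and does not say which livers had which. Because FPKM is relative to all reads of a library, a large change in abundant genes shifts the values of all others. Genes with at least 1 FPKM in at least 5 of the 15 liver libraries of the Gipr table were tested on log2(FPKM + 1) with limma 3.58.1 (R 4.3.3, trended empirical Bayes) over its 3 groups, and called where the p adjusted by Benjamini-Hochberg was under 0.05. Fold changes on that scale understate those of low genes. The 2 knockouts were compared by the difference of their fold changes in 1 fit over 30 libraries of the 2 liver tables, which were deposited separately. Marker scores are means of log2(FPKM + 1) and were tested by exact two-sided permutation of the livers. The procedure was tested on simulated data. Members and lists were chosen with earlier results of these data known. Named genes are the 15 largest called rises and falls with groups apart and a mean of at least 5 FPKM, up to 6 called members per list, members with a named role, and paralogs; not all that the rule gives are named, and some results are not reported here. Alternatives were the pseudocount, filters, scalings, fits, score terms and left-out libraries; the erythrocyte term and the common sum without Mup genes were added after the data were seen. Shared sequence was counted as 50-base words of GENCODE transcripts, and promoters are RefSeq's (GRCm38.p6), aligned with Biopython 1.88. Depth was estimated from the smallest steps of the values and is approximate.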

Additional observations from a re-analysis of the deposited data

Results flagged for a closer look

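In 31 of 270 groups of 5 livers the highest or lowest liver stood apart from the other 4 by more than Dixon's 95% critical value of 0.71, where chance flags about 1 in 20. Knockout replicate 5 stood apart for Acacb at 6.24 FPKM, Srebf2 at 7.56 FPKM, Selenbp1 at 233 FPKM, Mup9 at 803 FPKM, Mup19 at 10353 FPKM, Ugt2b37 at 8.65 FPKM, Gsta1 at 4.84 FPKM, Gstm3 at 19.3 FPKM, Lcn2 at 10.1 FPKM, Col1a1 at 1.69 FPKM, Cd9 at 7.51 FPKM and Cd74 at 849 FPKM. Its marker scores for Kupffer cell genes (6.31), lipid-associated macrophage genes (3.3), MHC class II genes (6.71), T and NK cell genes (2.38) and neutrophil genes (1.02) stood apart as well. Floxed replicate 3 stood apart for Ly6d at 55.7 FPKM, Ugt2b37 at 1.47 FPKM, Gstm3 at 129 FPKM, Cd9 at 20.7 FPKM and Cd74 at 146 FPKM. Its score for adipocyte markers was 2.1. Knockout replicate 2 stood apart for Selenbp2 at 798 FPKM, Ugt2b38 at 39.5 FPKM and C6 at 106 FPKM, and its hepatocyte score was 11.3. The others were Cyp4a14 at 303 FPKM in floxed replicate 5, Cyp4a12a at 109 FPKM in knockout replicate 3 and Mup9 at 374 FPKM in floxed replicate 2. The pancreas score of knockout replicate 1 was 7.99.

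For 27 named genes the effects of the 2 knockouts differed by limma's test of the difference (adjusted p under 0.05). The log2 fold change in GiprSyn-/- liver minus that in Glp1rWnt1-/- liver was negative for Cyp4a14 (-4.33), Cyp4a10 (-2.40), Crat (-1.43), Acadm (-0.40), Vnn1 (-1.51), Elovl5 (-1.85), Cd36 (-1.33), Fabp2 (-0.91), Lgals1 (-1.68), Apoa4 (-2.91), Apoc2 (-1.08), Cyp17a1 (-1.86), Cyp2c38 (-2.02), Fbp1 (-0.59), Paqr9 (-1.57) and Serpina7 (-1.75). It was positive for Ugt2b38 (3.35), Ugt2b37 (1.46), Cyp7b1 (1.86), C8b (1.27), Gstp1 (1.03), Sult1e1 (2.30), Lifr (1.57), Cyp1a2 (1.91), Cyp2c70 (1.39), Ces2b (2.41) and Adgrf1 (1.53). In the Gipr line Sult1e1 and Ces2b reached the minimum of 1 FPKM in the GiprSyn-/- livers alone, so a rise there was the one direction the filter allowed. Adgrf1 and Ugt2b37 also passed the filter of that line only through the GiprSyn-/- livers, so their differences are no separate support.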

How the results depend on the processing

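The 1160 calls (161 higher, 999 lower) stand beside 717 (281 and 436, 597 of them shared with the 1160) with median-of-ratios scaling, 721 (289 and 432, 577 shared) with quantile normalization, 692 (245 and 447, 608 shared) with a common sum without Mup genes, 1967 (1831 lower, 1134 shared) with a common sum, 3333 (350 and 2983, all 1160 shared) with array weights, 543 (423 lower) with a minimum of 1.5-fold, 1757 (1569 lower) with the MHC class II score as a term, 313 (48 and 265, 299 shared) with the erythrocyte term, and 108 (32 and 76, 105 shared) without the libraries with pancreas transcripts, where fewer libraries were compared. The causes were not tested. Leaving out 1 library gave 700 to 1627 calls, 119 to 170 higher and 581 to 1457 lower. The 75 differences between the knockouts became 42 with no filter, 39 with median-of-ratios scaling, 30 with quantile normalization, 587 with array weights, 171 with the pancreas score as a term, 129 with the MHC class II term, 16 without the libraries with pancreas transcripts, and 29 to 173 with 1 library left out, the lowest without Glp1rWnt1-/- replicate 5 and the highest without Glp1rWnt1-/- replicate 1. With the replicate block 1254 genes were called, but replicate numbers do not pair the livers, since correlations of same-numbered deviations ran from -0.19 to 0.294. Of the 84 called genes named here, 34 were called in all alternatives run, 37 lost the call only with the erythrocyte term or without the pancreas libraries, and 13 elsewhere, 9 of them in a scaling and 8 without 1 library. None of these 84 genes changed sign in any alternative. Of the 115 named genes, some that were not called did, such as Cyp7a1, with log2 fold changes from -0.81 to 1.10. FPKM carry no counts, so counting error cannot be given.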
